A study of Mus musculus with 6 samples.

Results

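Wnt signalling was examined here through 56 genes that encode its secreted ligands, surface receptors, extracellular modulators and intracellular effectors. They were taken by symbol among the protein-coding rows of the authors' deposited table of 39179 gene identifiers: the numbered genes of the Wnt, Fzd, Sfrp, Dkk and Rspo families, and Lgr4, Lgr5, Lgr6, Lrp5, Lrp6, Lef1, Tcf7, Tcf7l1, Tcf7l2, Axin1, Axin2, Ctnnb1, Apc, Znrf3 and Rnf43. The series holds RNA-seq of 6 tumour grafts of MMTV-Neu cells in FVB mice, 3 of genotype WT and 3 of genotype AXL KO. MMTV-Neu denotes the Neu (ErbB2) oncogene under the mouse mammary tumour virus promoter, which drives it in mammary epithelium, and both groups share it. AXL, a receptor tyrosine kinase, was knocked out in the grafted cells of the second group, and no treatment is labelled in either. The labels give no age of the hosts, no part of Axl that was deleted, and no statement on a common isolate for the cells of both genotypes or on separate host animals within a group. P-values therefore measure the spread between these libraries, which may be technical, and an effect of AXL and one of the cell isolate cannot be told apart.

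The libraries held 26541009 to 32491807 counts in genes. Axl itself had 1906, 1761 and 1507 counts in the WT libraries and 1360, 2396 and 1767 in the AXL KO libraries (log2 fold change -0.01 ± 0.16 SE, edgeR adjusted p = 0.978), so its count did not check the genotype, and all directions below are between libraries as labelled. Of 11 luminal epithelial markers, Epcam had 40328 or more counts in every library, whereas Foxa1 had 0 counts, and the basal keratin genes Krt5 and Krt14 had at most 3 counts in any library. Each graft also holds host cells, and in such bulk RNA fewer cells of a type and less RNA per cell cannot be told apart.

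Wnt proteins are lipid-modified secreted ligands that bind Frizzled receptors, mostly together with the co-receptors LRP5 and LRP6. In the canonical branch this stops the destruction complex of AXIN, APC and kinases from marking beta-catenin for breakdown, so that beta-catenin enters the nucleus and acts with TCF/LEF factors on target genes. R-spondins act through LGR receptors to remove the ubiquitin ligases RNF43 and ZNRF3, which otherwise take Frizzled receptors off the cell surface. In the mammary gland Wnt signalling is known for its part in duct branching and in the maintenance of stem and basal cells, and Wnt1 was first found as a gene activated by mouse mammary tumour virus.

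More of the genes were lower than higher in the AXL KO libraries. Levels are given in CPM, the count relative to library size after scaling by the TMM method. Of the 56 genes, 6 had no count, 15 had too few counts to test, and 35 were tested among 14850 genes with the edgeR quasi-likelihood test, at a Benjamini-Hochberg adjusted p under 0.05. There were 13 that fell and 2 that rose, beside 18.3% of all tested genes lower and 19.1% higher. The 15 called genes were 42.9% of the 35, beside 37.4% of all genes called in either direction, so the share called was near the background while the split leaned to lower values. The median log2 fold change of the 35 was -0.29, beside 0.00 over all genes. In 17 of the 35 every AXL KO library lay below every WT library and in 3 every one lay above, beside 25.2% and 26.9% of all tested genes (52.1% in either direction). A gene can pass the count filter through the group in which it is high, as Wnt4 did. Lef1 passed in this way too, with enough counts in only 1 AXL KO library. In the 30 genes with enough counts in every library, 11 fell and 2 rose. Without AXL KO replicate 1, 8 of the genes were lower, and without AXL KO replicate 3, 10 were lower and 1 was higher. Over all genes 1850 and 1733 were then lower, against 2717 with all libraries, and 2000 were higher without replicate 3, against 2835. Without AXL KO replicate 2, 14 of the genes were lower, beside 2828 over all genes.

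**Figure D1:**
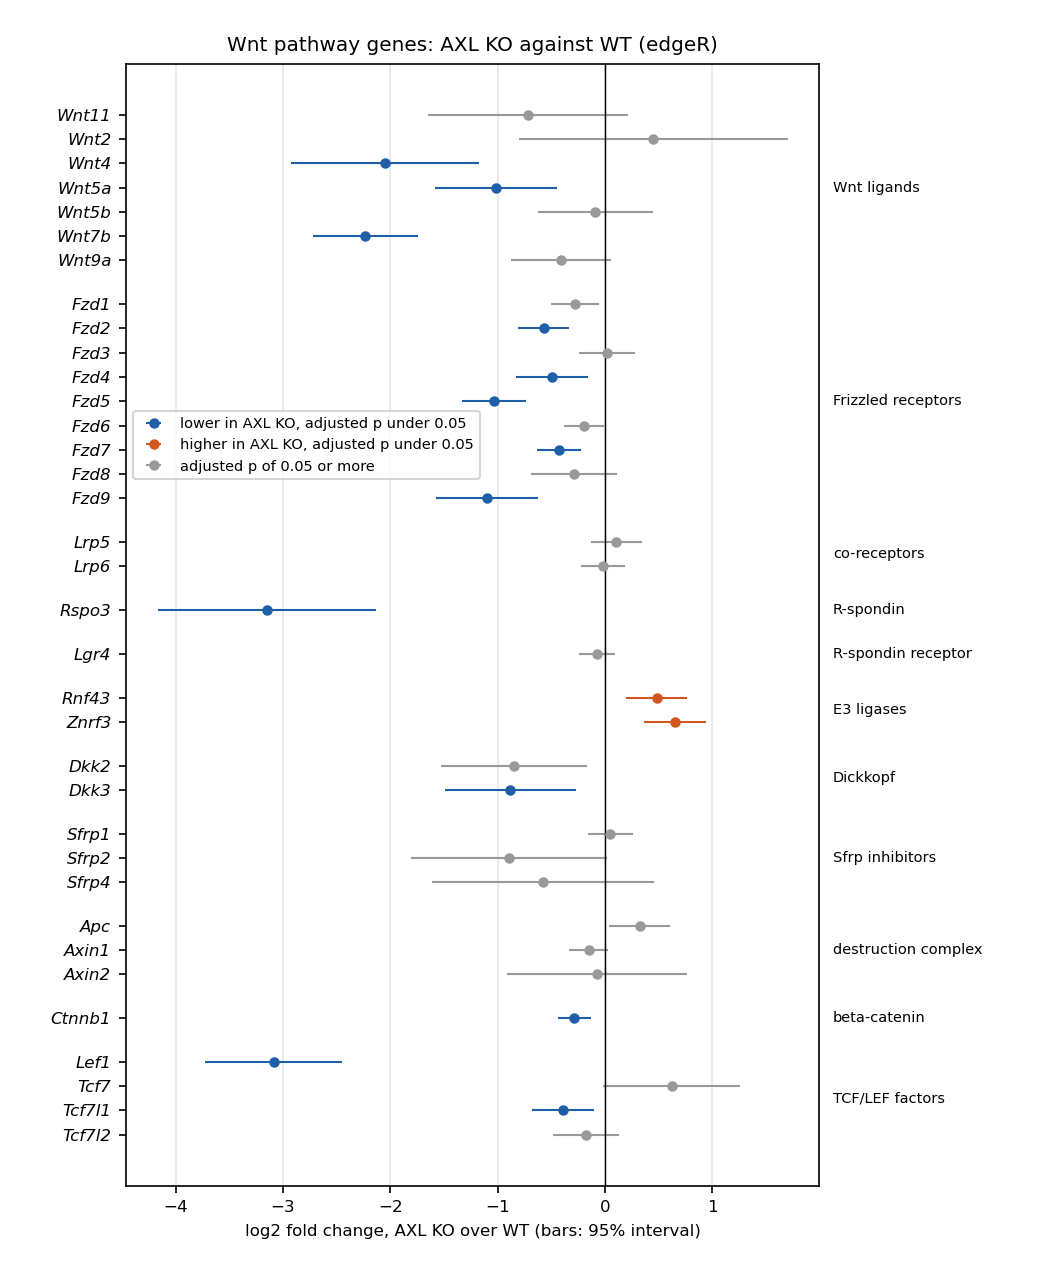
Log2 fold change of AXL KO over WT (x axis) for the 35 tested genes, grouped by role (y axis). Points are edgeR estimates and bars their 95% intervals; blue and orange mark an adjusted p under 0.05, with 13 genes to the left of 0 and Rnf43 and Znrf3 to the right.

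**Figure D2:**
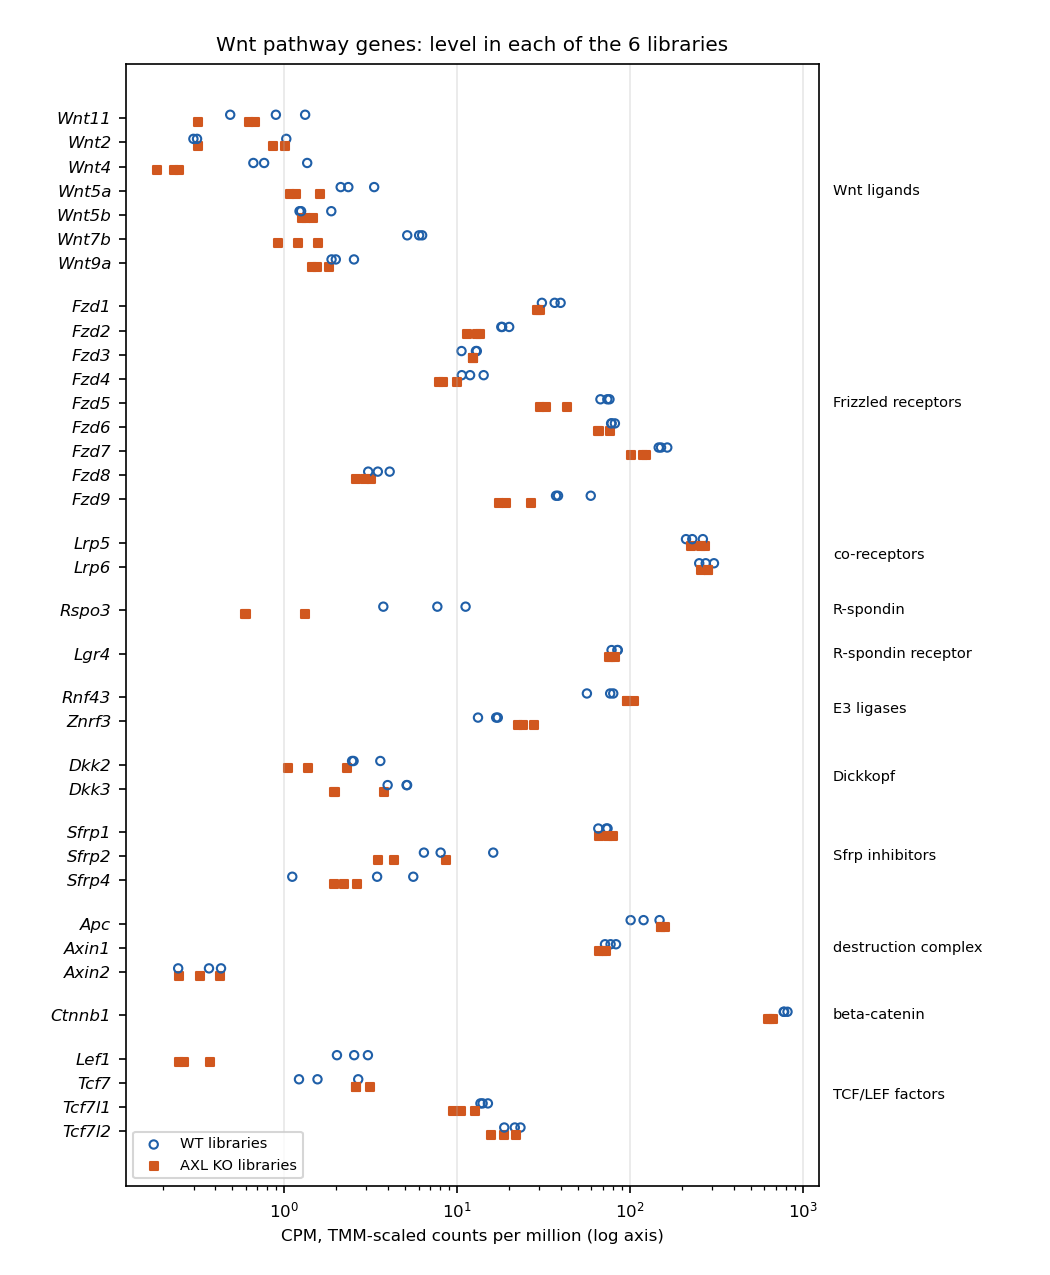
Level of each tested gene in CPM (log x axis) in each of the 6 libraries. Open circles are the 3 WT and filled squares the 3 AXL KO libraries; Rspo3, Lef1 and Wnt7b show wide gaps between the groups, while Lrp5, Lrp6, Lgr4 and Sfrp1 overlap.

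Few Wnt ligand genes had enough counts to test. Of 19, Wnt3, Wnt3a and Wnt8b had 0 counts in all libraries, which allows at most 0.113 CPM in a library, and 9 more had too few to test. Among the latter, Wnt7a had 0, 16 and 1 counts in the WT libraries and 0 in each AXL KO library, so nearly all of its counts came from WT replicate 2. Wnt10b had 9, 8 and 6 counts in the WT and 2, 5 and 6 in the AXL KO libraries, and Wnt1, the ligand gene known from mammary tumours, had 0 in the WT and 1, 1 and 0 in the AXL KO libraries. Wnt16 had 12, 8 and 6 counts against 4, 7 and 0, and Wnt9b had 5, 8 and 8 against 3, 5 and 1. Wnt2b had 2, 2 and 4 against 2, 5 and 3, and Wnt6, Wnt8a and Wnt10a had at most 2 counts in any library. These counts were too low for a comparison.

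Of the 7 tested ligand genes 3 fell and none rose; the 42.9% called is near the 37.4% of all genes. Wnt7b (chromosome 15, 85535437 to 85582473), a ligand that mostly signals through beta-catenin, lay at 6.29, 6.05 and 5.16 CPM in the WT libraries and at 1.20, 1.58 and 0.920 in the AXL KO libraries. The groups were far apart, and Wnt7b was 4.70-fold lower (log2 fold change -2.23 ± 0.22 SE, edgeR adjusted p = 0.000129). Wnt4 (chromosome 4, 137277489 to 137299726), which in the mammary gland relays progesterone signals, had 37, 20 and 22 counts in the WT and 7, 6 and 7 in the AXL KO libraries. It was 4.15-fold lower (log2 fold change -2.05 ± 0.39 SE, edgeR adjusted p = 0.00372), on counts that were low in both groups. Wnt5a (chromosome 14, 28504750 to 28527448), the best known ligand of the beta-catenin-independent branch, lay at 2.36, 3.32 and 2.13 CPM in the WT and 1.17, 1.61 and 1.08 in the AXL KO libraries. These values did not overlap, and Wnt5a was 2.02-fold lower (log2 fold change -1.01 ± 0.25 SE, edgeR adjusted p = 0.0129). Its call was lost without either of AXL KO replicates 1 and 3 (log2 fold change -0.95 and -0.89, adjusted p = 0.0514 and 0.0524). The other tested ligand genes did not pass. Wnt9a had a log2 fold change of -0.41 (95% interval -0.87 to 0.06), Wnt5b of -0.09 (-0.62 to 0.45), Wnt11 of -0.72 (-1.65 to 0.22) and Wnt2 of 0.45 (-0.80 to 1.70). The sign of the Wnt5b value turned without WT replicate 1, where it was 0.13.

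The order of the ligands differed between the groups on the scale of CPM per kilobase of exon. In the WT libraries Wnt7b was highest at 1.19 ± 0.12 (SD, n = 3), above Wnt9a at 0.643 ± 0.11 and apart from it. In the AXL KO libraries Wnt5b and Wnt9a stood at 0.514 ± 0.040 and 0.483 ± 0.058 and overlapped. Wnt2 came next at 0.326 ± 0.163 and then Wnt7b at 0.252 ± 0.067. The range of Wnt2 overlapped those of Wnt9a and Wnt7b, so the order of Wnt2 and Wnt7b is not settled. Summed over all 19 ligand genes, the level was 4.47, 3.61 and 3.02 in the WT and 1.76, 2.34 and 2.08 in the AXL KO libraries, so the groups did not overlap. Wnt7b made up 32.6% ± 3.36 of this sum in the WT and 12.3% ± 2.80 in the AXL KO libraries (SD, n = 3). Porcn and Wls, which are needed to lipid-modify and to export Wnt proteins, did not pass the test. Wls lay at 104 ± 3.35 CPM in the WT and 106 ± 8.04 in the AXL KO libraries (log2 fold change 0.03 ± 0.08 SE), and Porcn at 4.42 ± 0.235 and 3.89 ± 0.847 (-0.18 ± 0.18 SE). Without AXL KO replicate 2 the Wls value was -0.03.

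**Figure D3:**
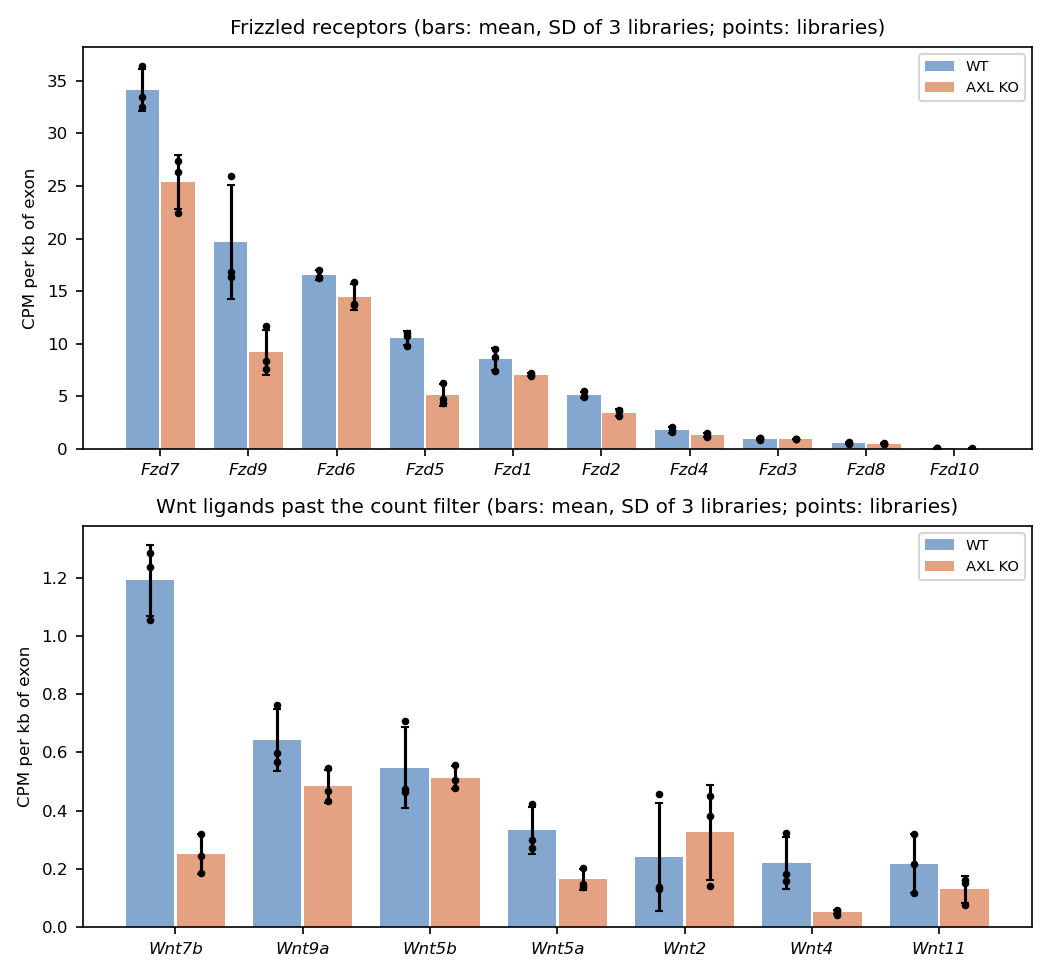
Level per kilobase of exon (y axis, CPM per kb) of the 10 Frizzled genes and the 7 tested Wnt ligand genes (x axis). Bars are means, whiskers the SD of 3 libraries and points single libraries; Fzd7 is the highest receptor in both groups, and Wnt7b leads the ligands in the WT libraries only.

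Frizzled receptor genes were lower as a family in the AXL KO libraries. Summed per kilobase over all 10, they lay at 94.5, 99.3 and 100.2 CPM per kilobase in the WT libraries and at 68.4, 68.0 and 65.8 in the AXL KO libraries, a ratio of 0.688 between the group means with no overlap. Of the 9 tested, 5 fell and none rose, beside 18.3% of all genes lower and 19.1% higher. In 7 of them every AXL KO library lay below every WT library, beside 25.2% of all genes. Fzd10 was not tested, with 11, 5 and 4 counts in the WT and 4, 4 and 3 in the AXL KO libraries.

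Fzd5 and Fzd9 fell about as far as each other. Fzd5 (chromosome 1, 64730558 to 64737751) lay at 74.2, 76.4 and 67.7 CPM in the WT libraries and at 30.3, 43.4 and 32.7 in the AXL KO libraries. It was 2.05-fold lower (log2 fold change -1.04 ± 0.13 SE, edgeR adjusted p = 0.000538). Fzd9 (chromosome 5, 135248938 to 135251230) lay at 37.5, 38.5 and 59.5 CPM in the WT and at 19.1, 17.5 and 26.7 in the AXL KO libraries. Its WT replicate 3 stood above the other WT libraries, and all WT values exceeded all AXL KO values, with a 2.14-fold lower mean (log2 fold change -1.10 ± 0.21 SE, edgeR adjusted p = 0.00392). Fzd2 (chromosome 11, 102604396 to 102608058) fell from 18.1, 20.1 and 18.3 CPM to 13.0, 11.4 and 13.5, by 1.49-fold (log2 fold change -0.57 ± 0.11 SE, edgeR adjusted p = 0.00353). Fzd4 (chromosome 7, 89404355 to 89413134), which is also the receptor of the vascular ligand norrin, lay at 10.7, 14.3 and 11.9 CPM in the WT and 8.32, 10.01 and 7.88 in the AXL KO libraries (log2 fold change -0.49 ± 0.15 SE, edgeR adjusted p = 0.0291). Its call was lost without WT replicate 2 (-0.37, adjusted p = 0.0903), WT replicate 3 (-0.51, adjusted p = 0.0687) or either of AXL KO replicates 1 and 3 (-0.46 and -0.42, adjusted p = 0.0958 and 0.106).

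The most abundant Frizzled gene, Fzd7 (chromosome 1, 59482424 to 59486955), has been tied to mammary stem cells and basal-type breast tumours. It lay at 152, 165 and 147 CPM in the WT libraries and at 119, 124 and 102 in the AXL KO libraries, and these ranges did not meet. Fzd7 fell 1.34-fold (log2 fold change -0.43 ± 0.09 SE, edgeR adjusted p = 0.00701). Per kilobase it held 34.8% ± 2.18 of the Frizzled sum in the WT and 37.6% ± 3.16 in the AXL KO libraries (SD, n = 3). Its upstream sequence is shown because, among the Frizzled genes with an entry in the RefSeq promoter table, it alone holds the core of a TCF/LEF site, searched as CTTTG followed by AA, AT, TA or TT on both strands. The 250 bases before the RefSeq start (GRCm38.p6, chr1:59481897-59482146, plus strand) follow, with the match in capitals.
Fzd7: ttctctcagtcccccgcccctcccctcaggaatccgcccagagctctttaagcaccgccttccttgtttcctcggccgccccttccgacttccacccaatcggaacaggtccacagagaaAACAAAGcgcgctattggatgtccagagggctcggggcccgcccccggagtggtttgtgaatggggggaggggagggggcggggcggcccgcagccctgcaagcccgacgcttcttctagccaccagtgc
The match began 130 bases before the start, and it is a match of letters, not a measured site. Such a match was present in 5544 of 32851 promoters of the table, each from 250 bases before to 50 after a start, or 16.9%, and in 7 of 46 promoters that belong to 36 of the 56 genes, or 15.2%.

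Frizzled genes that did not pass lay close to or below the WT level. Fzd6 was second in the AXL KO libraries per kilobase, at 14.4 ± 1.3, and had a log2 fold change of -0.20 (95% interval -0.38 to -0.01, edgeR adjusted p = 0.0938). Fzd1 had -0.28 (-0.50 to -0.05, edgeR adjusted p = 0.0548), and it passed without WT replicate 3 (-0.37, adjusted p = 0.0222). Fzd3 lay at 12.2 ± 1.35 CPM in the WT and 12.4 ± 0.0298 in the AXL KO libraries, with a log2 fold change of 0.02 (-0.24 to 0.28). Without WT replicate 1 the sign of the Fzd3 value turned, at -0.07. Fzd8 had -0.29 (-0.69 to 0.11). From top to bottom the order per kilobase in the WT libraries was Fzd7, Fzd9, Fzd6, Fzd5, Fzd1, Fzd2, Fzd4, Fzd3 and Fzd8, with the ranges of Fzd9 and Fzd6 overlapping. In the AXL KO libraries Fzd6 stood above Fzd9 and Fzd1 above Fzd5, with no overlap of neighbours.

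Neither co-receptor gene passed the test. Lrp5 lay at 212, 265 and 230 CPM in the WT and 274, 227 and 260 in the AXL KO libraries, and Lrp6 at 252, 307 and 275 against 257, 285 and 283. Both pairs of groups overlapped, with log2 fold changes of 0.11 (95% interval -0.13 to 0.34) and -0.02 (-0.22 to 0.18). The sign of the Lrp6 value turned without WT replicate 2 (0.06) or AXL KO replicate 1 (0.03). Among 11 tested genes of other receptors and co-receptors, from a list of 13, 5 fell and none rose (45.5% called, beside 37.4% of all genes), and their median log2 fold change was -0.69, beside 0.00 over all genes. Sdc1, the heparan sulphate proteoglycan syndecan-1, had 1770, 1688 and 2012 counts in the WT and 835, 1075 and 1019 in the AXL KO libraries (log2 fold change -0.99 ± 0.10 SE, edgeR adjusted p = 0.000172). Gpc6 and Gpc4, glypicans of the cell surface, had -1.61 ± 0.25 and -0.54 ± 0.09 (SE). Tspan12, a partner of FZD4 in norrin signalling, had -0.78 ± 0.11, and Ptk7, a receptor of the planar polarity branch, -0.48 ± 0.09 (SE). The adjusted p-values of these 4 were 0.00285 or lower (edgeR).

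R-spondin input was represented almost only by Rspo3. Rspo4 had no count, and Rspo1 and Rspo2 had 8 and 24 counts over all 6 libraries. Rspo3 (chromosome 10, 29452416 to 29535867), known as a stromal and endothelial product, had 102, 232 and 322 counts in the WT libraries and 17, 43 and 18 in the AXL KO libraries. In CPM these were 3.75, 7.71 and 11.2 against 0.602, 1.33 and 0.591, so the libraries of each group differed among themselves, and the groups did not overlap. The decrease was 8.88-fold (log2 fold change -3.15 ± 0.45 SE, edgeR adjusted p = 0.00098), and the log2 value was -2.75 when WT replicate 3 was left out and -3.66 when AXL KO replicate 2 was. Of the R-spondin receptors, Lgr4 lay at 78.5, 84.9 and 85.3 CPM in the WT and 77.7, 76.3 and 81.9 in the AXL KO libraries (log2 fold change -0.08, 95% interval -0.24 to 0.09). Lgr5 and Lgr6 had too few counts to test, with 10, 3 and 5 against 1, 2 and 1 for Lgr5 and 7, 5 and 13 against 12, 5 and 9 for Lgr6.

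The genes of both Frizzled-removing ubiquitin ligases rose, beside 19.1% of all tested genes higher. These ligases act on Frizzled protein at the cell surface, which was not measured. Znrf3 (chromosome 11, 5276324 to 5444847) lay at 13.3, 17.2 and 16.9 CPM in the WT libraries and at 22.7, 24.2 and 27.8 in the AXL KO libraries. It was 1.58-fold higher (log2 fold change 0.66 ± 0.13 SE, edgeR adjusted p = 0.00434). Rnf43 (chromosome 11, 87662722 to 87735539) lay at 56.5, 80.3 and 77.1 CPM in the WT and at 96.9, 96.7 and 105 in the AXL KO libraries, with no overlap. It was 1.396-fold higher (log2 fold change 0.48 ± 0.13 SE, edgeR adjusted p = 0.0165), and its call was lost without AXL KO replicate 3 (0.45, adjusted p = 0.0509). Per kilobase Rnf43 was the more abundant of the pair in both groups, at 10.9 ± 2.0 and 15.2 ± 0.74, against 2.001 ± 0.28 and 3.16 ± 0.33 for Znrf3 (SD, n = 3).

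Among secreted inhibitors, Dickkopf genes were lower in part and Sfrp genes did not pass. Dkk1 and Dkk4 had no count in any library. Dkk3 (chromosome 7, 112116017 to 112159057), an atypical family member, lay at 5.15, 5.12 and 3.98 CPM in the WT and 1.95, 3.77 and 1.97 in the AXL KO libraries (log2 fold change -0.88 ± 0.27 SE, edgeR adjusted p = 0.03). AXL KO replicate 2 came close to the lowest WT library. Its call was lost without WT replicate 1 or WT replicate 2 (-0.82 in both, adjusted p = 0.0671 and 0.0781) and on leaving out replicate 1 or 3 of AXL KO (-0.72 in both, adjusted p = 0.104 in both), and without AXL KO replicate 2 the value was -1.27. Dkk2, which binds LRP co-receptors, lay at 3.61, 2.53 and 2.48 CPM against 1.38, 2.32 and 1.05, with an edgeR adjusted p of 0.0539 (log2 fold change -0.85, 95% interval -1.53 to -0.16). It passed without AXL KO replicate 2 (-1.23, adjusted p = 0.00788).

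Sfrp proteins bind Wnt ligands outside the cell. Sfrp1, the most abundant, overlapped fully, at 73.2, 65.8 and 74.4 CPM in the WT and 66.5, 80.4 and 74.4 in the AXL KO libraries (log2 fold change 0.05, 95% interval -0.16 to 0.26). The Sfrp1 value was -0.01 without AXL KO replicate 2. Sfrp2 lay at 16.2, 6.45 and 8.06 CPM against 4.32, 8.62 and 3.52 (log2 fold change -0.89, -1.80 to 0.02), and it passed without AXL KO replicate 2 (-1.38, adjusted p = 0.0192). Sfrp4 varied among the WT libraries, at 5.59, 3.46 and 1.12 CPM, and lay at 1.95, 2.22 and 2.63 in the AXL KO libraries (log2 fold change -0.57, -1.61 to 0.46). Without WT replicate 3 its value was -0.99 (adjusted p = 0.0287). Sfrp5 had 9 counts in the WT and 3 in the AXL KO libraries. Of 10 other secreted or surface inhibitors 4 were tested, and 2 of them rose, beside 19.1% of all tested genes higher. Trabd2b, the protease TIKI2 that inactivates Wnt ligands, had 555, 540 and 591 counts in the WT and 933, 1082 and 1452 in the AXL KO libraries (log2 fold change 0.95 ± 0.15 SE, edgeR adjusted p = 0.00147). Dkkl1, a Dickkopf relative, had 38, 36 and 49 against 92, 70 and 106 (1.05 ± 0.24 SE, edgeR adjusted p = 0.0101). Kremen1 and Apcdd1 did not pass, with 0.08 ± 0.12 and -0.42 ± 0.20 (SE), and without AXL KO replicate 3 the Kremen1 value was -0.0041.

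Beta-catenin mRNA was slightly lower, and Axin1, Axin2 and Apc, which encode scaffolds of the destruction complex, did not pass. Ctnnb1 (chromosome 9, 120929216 to 120960507), which encodes beta-catenin, was the most abundant of the 56 genes per kilobase. It lay at 783, 818 and 777 CPM in the WT and at 628, 671 and 652 in the AXL KO libraries, tight and apart, and it was 1.22-fold lower (log2 fold change -0.29 ± 0.07 SE, edgeR adjusted p = 0.0112). The call was lost without AXL KO replicate 1 (-0.26, adjusted p = 0.0549). Canonical Wnt signalling acts on the stability of the beta-catenin protein, which was not measured. Axin1 lay at 72.0, 83.3 and 77.5 CPM against 70.4, 66.7 and 72.5 (log2 fold change -0.15, 95% interval -0.34 to 0.03). Apc lay at 101, 149 and 120 CPM against 153, 151 and 160, all AXL KO libraries above all WT libraries, with 0.32 (0.04 to 0.61) and an edgeR adjusted p of 0.0713. It passed without WT replicate 2 (0.48, adjusted p = 0.00583).

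The other genes of this step went both ways. Of 24 tested genes for Dishevelled, the destruction complex and its kinases, 4 rose and 5 fell, or 16.7% and 20.8%, near the 19.1% and 18.3% of all genes, and the median over the list was -0.02 (log2 fold change). Apc2, a relative of Apc, was among those that rose, with 10, 11 and 8 counts in the WT and 20, 15 and 26 in the AXL KO libraries (0.99 ± 0.34 SE, edgeR adjusted p = 0.0459); it was singled out after its values were seen. Amer1, an APC-binding membrane protein, rose (0.64 ± 0.11 SE), as did Fbxw11, a ubiquitin ligase subunit that recognises phosphorylated beta-catenin (0.53 ± 0.09 SE). Csnk1e, casein kinase 1 epsilon, fell (-0.48 ± 0.09 SE). Dact3, a Dishevelled antagonist, had 75, 70 and 67 counts in the WT and 18, 51 and 15 in the AXL KO libraries (-1.43 ± 0.37 SE). The edgeR adjusted p-values of these 4 were 0.016 or lower, and the Dact3 call was lost without AXL KO replicate 1 (-1.24, adjusted p = 0.0601), while without AXL KO replicate 2 the value was -2.12. Csnk1a1 had -0.03 ± 0.06 (SE), and Dact2 had -0.24 ± 0.10 (SE) and passed without WT replicate 1 (-0.32, adjusted p = 0.0243).

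Of the 4 TCF/LEF genes, Lef1 and Tcf7l1 fell, and Tcf7 and Tcf7l2 did not pass. These calls were 50% of the 4, beside 37.4% of all genes called and 18.3% lower. Lef1 (chromosome 3, 131110471 to 131224356), a factor that is itself a known target of beta-catenin, had 55, 92 and 73 counts in the WT libraries and 7, 12 and 8 in the AXL KO libraries. Every WT library stood several times above every AXL KO library, and Lef1 was 8.502-fold lower (log2 fold change -3.09 ± 0.28 SE, edgeR adjusted p = 9.36e-05). Its level was low in both groups, at 0.289 ± 0.059 and 0.0334 ± 0.0076 CPM per kilobase (SD, n = 3). Lef1 passed the count filter through the WT libraries, with enough counts in only 1 AXL KO library. Tcf7, the T cell factor TCF1, lay at 2.69, 1.56 and 1.22 CPM in the WT and 2.62, 2.63 and 3.15 in the AXL KO libraries, where WT replicate 1 reached into the AXL KO range (log2 fold change 0.62, 95% interval -0.01 to 1.26). Without WT replicate 1 Tcf7 passed (adjusted p = 0.011).

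Both more abundant factors were nearer to their WT level. Tcf7l1 (chromosome 6, 72626378 to 72789254), mostly a repressor, lay at 13.7, 15.1 and 14.1 CPM in the WT and 10.6, 9.55 and 12.7 in the AXL KO libraries (log2 fold change -0.39 ± 0.13 SE, edgeR adjusted p = 0.0408). This call was lost without WT replicate 2 (-0.34, adjusted p = 0.107), WT replicate 3 (-0.40, adjusted p = 0.0937), and either of AXL KO replicates 1 and 2 (-0.36 and -0.30, adjusted p = 0.122 and 0.102). Tcf7l2 lay at 23.3, 21.6 and 18.8 CPM against 15.8, 18.8 and 21.8 and overlapped (log2 fold change -0.17, -0.48 to 0.13). Per kilobase, Lef1 held 4.12% ± 0.891 of the sum of the 4 factors in the WT and 0.564% ± 0.166 in the AXL KO libraries (SD, n = 3), and Tcf7 held 9.73% ± 3.59 and 17.7% ± 0.406.

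Of 4 Lef1 starts in the table, the first and the farthest downstream are shown because Lef1 had the second largest decrease among the 35 tested genes and because its starts differ in the motif. The counts cover the whole gene and do not separate the starts. The 250 bases before the first RefSeq start (GRCm38.p6, chr3:131110047-131110296, plus strand) held no TCF/LEF core. Those before the start farthest downstream (chr3:131156044-131156293, plus strand), which lie in no exon of the annotation, held 1, in capitals. The other start inside the gene (chr3:131112541-131112790 before it) and the second start near the first held none. Axin2 (chr11:108920099-108920348, plus strand), whose promoter is a standard reporter of Wnt activity, is shown beside them and held none in this window.
Lef1 first start: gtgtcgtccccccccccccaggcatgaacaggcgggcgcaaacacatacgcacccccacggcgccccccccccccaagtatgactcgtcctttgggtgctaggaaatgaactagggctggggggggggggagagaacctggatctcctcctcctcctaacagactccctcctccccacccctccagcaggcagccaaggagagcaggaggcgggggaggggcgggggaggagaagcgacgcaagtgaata
Lef1 downstream start: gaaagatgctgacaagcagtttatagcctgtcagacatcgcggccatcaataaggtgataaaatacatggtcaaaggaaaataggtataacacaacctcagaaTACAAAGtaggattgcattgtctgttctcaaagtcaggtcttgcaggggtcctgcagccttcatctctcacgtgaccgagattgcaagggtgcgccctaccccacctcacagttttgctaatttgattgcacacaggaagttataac
Axin2: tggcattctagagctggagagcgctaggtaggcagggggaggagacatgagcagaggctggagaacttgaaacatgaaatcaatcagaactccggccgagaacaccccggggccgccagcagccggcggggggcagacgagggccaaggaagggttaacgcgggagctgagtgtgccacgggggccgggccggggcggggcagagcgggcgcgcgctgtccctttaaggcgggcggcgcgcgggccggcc
The match before the downstream Lef1 start began 147 bases before it, and no binding was measured.

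Axin2, the target gene most used to read canonical Wnt activity, was counted near the limit of the test in all libraries. It had 10, 13 and 7 counts in the WT and 12, 8 and 10 in the AXL KO libraries, with a log2 fold change of -0.08 (95% interval -0.91 to 0.76, edgeR adjusted p = 0.89). At this depth only a large difference in Axin2 would have been detectable, and the sign turned without WT replicate 2 (0.12) or AXL KO replicate 2 (0.11). Among other genes known as feedback targets, Sp5 had 0 counts, Notum 4 and Lgr5 22 over the 6 libraries, whereas Znrf3 had 3634 and Rnf43 15230, and both of these rose (Sp5 and Notum were singled out after their values were seen). Lef1, named above as a target of beta-catenin, had 247 counts and fell (log2 fold change -3.09). Of 21 commonly used target genes outside the 56, 15 were tested, 5 fell and 1 rose, so that 40.0% were called, near the 37.4% of all genes, and the median over the list was -0.35 (log2 fold change). Many of these genes also respond to other pathways.

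Ascl2, an intestinal stem cell factor, had 27, 43 and 34 counts in the WT and 10, 15 and 6 in the AXL KO libraries (log2 fold change -1.81 ± 0.33 SE, edgeR adjusted p = 0.00316). Bambi, a decoy receptor of TGF-beta signalling, had 437, 354 and 328 against 100, 189 and 117 (-1.56 ± 0.22 SE, edgeR adjusted p = 0.000853). Ephb3 also fell, at -0.58 ± 0.08 (SE, edgeR adjusted p = 0.00103). Cdx2, an intestinal homeobox gene, went the other way, with 2, 5 and 1 counts in the WT libraries and 59 in each AXL KO library (4.33 ± 0.38 SE, edgeR adjusted p = 7.71e-05). It passed the count filter through the AXL KO libraries, where it is high, with too few counts in every WT library. The Cdx2 value was 5.08 without WT replicate 2 and 3.95 without WT replicate 3. Ccnd1, cyclin D1, lay at 562 ± 60.6 CPM in the WT and 549 ± 28.2 in the AXL KO libraries (-0.03 ± 0.09 SE), and Id2 had -0.18 ± 0.09 (SE). The Ccnd1 sign turned without WT replicate 1 (0.05) or AXL KO replicate 3 (0.01).

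**Figure D4:**
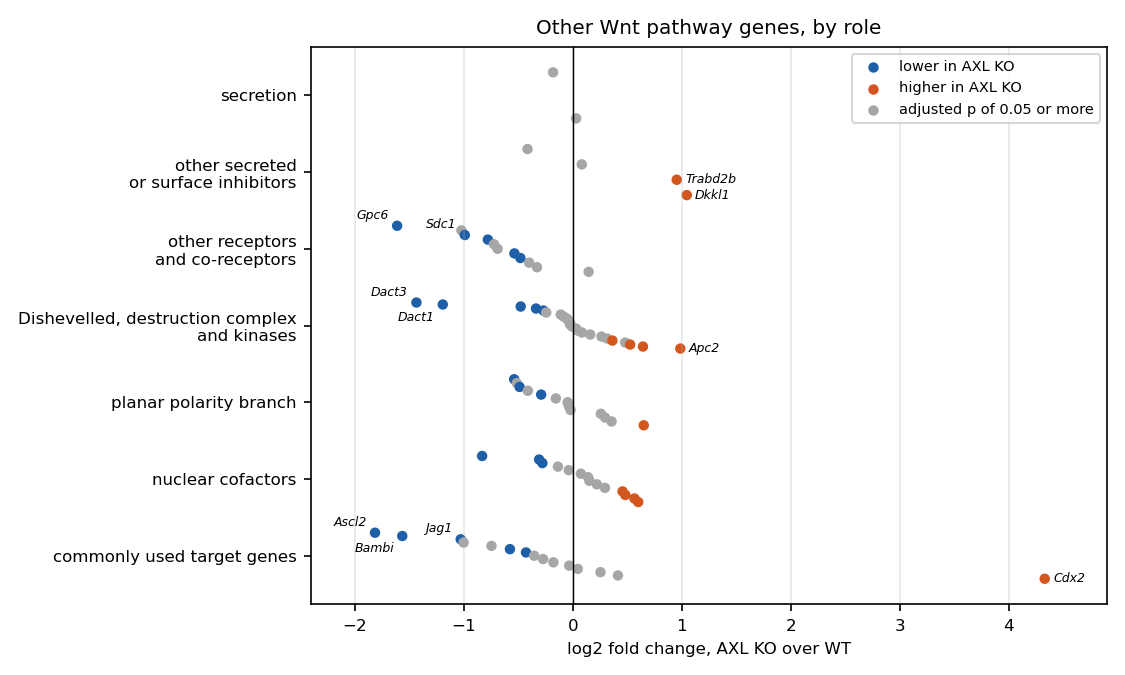
Log2 fold change of AXL KO over WT (x axis) of the 83 tested genes on 7 lists of other Wnt pathway genes (y axis). Each point is a gene, blue if lower and orange if higher at an adjusted p under 0.05; the receptor list lies mostly left of 0, and Cdx2 stands apart at 4.33.

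Over all 99 genes of the 7 lists, 83 were tested, 21 fell and 12 rose, or 25.3% and 14.5% of those tested, beside 18.3% and 19.1% of all genes. Planar polarity genes, which orient cells within a sheet, were mixed. Of 13 tested, Prickle2 rose (0.65 ± 0.14 SE), and Prickle1 (-0.54 ± 0.12 SE), Celsr1 (-0.49 ± 0.11 SE) and Scrib (-0.29 ± 0.09 SE) fell, all at an edgeR adjusted p of at most 0.037. These calls were 30.8% of the 13, beside 37.4% of all genes called. The Scrib call was lost whenever WT replicate 2, WT replicate 3 or any AXL KO library was left out, with values from -0.33 to -0.21 and adjusted p-values from 0.0557 to 0.105. Daam1 had -0.05 ± 0.12 (SE), and its sign turned without WT replicate 2 (0.02) or WT replicate 3 (0.04). Among 14 nuclear cofactors 4 rose and 3 fell, or 28.6% and 21.4%, beside 19.1% and 18.3% of all genes. The Groucho corepressor genes Tle3 and Tle4 rose (0.56 ± 0.12 and 0.46 ± 0.09 SE), as did Smarca4, a chromatin remodelling ATPase (0.48 ± 0.08 SE), at an edgeR adjusted p of at most 0.00597. Pygo1, a beta-catenin cofactor, fell (-0.83 ± 0.14 SE, edgeR adjusted p = 0.00208), and so did Aes (-0.31 ± 0.08 SE, edgeR adjusted p = 0.0128), whose call was lost without AXL KO replicate 3 (-0.28, adjusted p = 0.0651).

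Markers of some cell types that can express these genes also differed between the groups, and those of others did not. Beside each list below stand 18.3% of all tested genes lower and 19.1% higher, or 37.4% called in either direction. Among 10 endothelial markers there were 9 that fell, and their summed level was 327 to 366 CPM in the WT and 194 to 255 in the AXL KO libraries. Of 8 pericyte markers 7 fell, with sums of 530 to 621 and 351 to 402 CPM. Of 11 fibroblast markers none passed, with sums of 1727 to 2953 and 1334 to 2177 CPM. Of 10 macrophage markers 1 rose and none fell, with sums of 854 to 1258 and 679 to 1286 CPM. None of 6 adipocyte markers passed, and none of the 3 tested among 6 muscle and nerve markers. Among the AXL KO libraries, replicate 2 had the highest fibroblast, endothelial, pericyte, basal and myoepithelial, and macrophage sums. It was the highest AXL KO library for 9 of the 13 genes that fell and for 15 of all 35 tested, and replicate 3 was for 3 and 14. The same share over all genes was not determined, so no background stands beside these counts. Of 12 T cell markers 9 rose, with sums of 10.4 to 14.1 and 26.0 to 28.0 CPM. Of 8 NK and cytotoxic markers 8 rose, with sums of 2.39 to 4.62 and 29.3 to 40.9 CPM. Among these, Cd5, Eomes, Klrb1c and Prf1 passed the count filter through the AXL KO libraries, with enough counts in no WT library. For them a rise was the likely call. Lef1 and Tcf7 are both known from T cells, with log2 fold changes of -3.09 and 0.62, of which that of Tcf7 did not pass. Of 10 basal and myoepithelial markers 3 fell and 1 rose, with sums of 127 to 155 and 48.4 to 101 CPM, in which smooth muscle genes such as Acta2 prevail. In these lists every marker had a count. Krt5, Krt14 and Krt17 had too few to test, however, so 7 of the 10 basal and myoepithelial markers were tested. Of the 11 luminal markers 9 were tested, and of these 3 fell and 2 rose (edgeR adjusted p at most 0.026). Epcam (-0.53 ± 0.07 SE), Krt18 (-0.60 ± 0.11 SE) and Krt8 (-0.44 ± 0.08 SE) fell, and Esr1 (1.01 ± 0.11 SE) and Erbb2 (0.36 ± 0.10 SE) rose. Erbb2, at 7193 ± 655 CPM in the WT and 9207 ± 1007 in the AXL KO libraries (SD, n = 3), made up most of the luminal sum, so that sum is not compared. The part of any of these cell types in the values of the 56 genes was not tested.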

How the data were processed

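The authors deposited 1 raw count per gene and library for 39179 identifiers, with 5 summary rows that name no gene. CASAVA 1.8, TopHat2 2.0.10, HTSeq 0.5.3, DESeq2 1.4.5 and GRCm38 are named in the submitters' processing notes. The use of strand is not given in the sources used here. How reads over both a gene and its antisense partner were counted is therefore not known. Of the called genes, exons of Ctnnb1, Fzd5, Lef1, Rspo3, Tcf7l1, Wnt5a and Wnt7b overlap such a gene in GENCODE M21. The summary rows were left out. In them, non-unique alignments were 27.3% to 29.0% of all counted lines in the WT and 25.7% to 26.9% in the AXL KO libraries. Those in no gene were 4.41% to 5.37% and 5.55% to 6.88%, and ambiguous ones 0.993% to 1.09% and 0.717% to 0.896%. None of these shares overlapped between the groups, and whether this difference touched the calls was not tested. The authors' deposited table also gives a signal, which is the count divided by a size factor, log2 fold changes with the sign of WT over AXL KO, test scores and p-values. It supplied symbols and biotypes, and its fold changes were turned round where compared.

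Genes were filtered with filterByExpr (minimum count 10, total 15), which left 14850 of 21716 genes with a count. The comparison used edgeR 4.0.16 (R 4.3.3) and its quasi-likelihood test on the deposited counts, with TMM scaling, group as the only term, 4 residual degrees of freedom and p-values adjusted by Benjamini-Hochberg across every tested gene. Standard errors come from the fold change and its F statistic. Exon lengths are unions of exons in GENCODE M21 (GRCm38), which also gave the positions, and a union overstates the length of genes with rare exons. Promoter sequences are from RefSeq (GRCm38.p6). The steps were tested on simulated data. Alternatives were other scalings, filters and tools (DESeq2 1.42.0, limma-voom of limma 3.58.1), a replicate block, a threshold of 0.01 and leaving out each library. Every one of the 56 genes is accounted for, and of each list of other pathway genes up to 4 with the smallest p and the 2 most abundant are named. The genes, lists and rules were chosen with earlier results of these data known.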

Additional observations from a re-analysis of the deposited data

How the results depend on the processing

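Of the 15 called genes, 9 (Fzd2, Fzd5, Fzd7, Fzd9, Lef1, Rspo3, Wnt4, Wnt7b and Znrf3) kept direction and call under all of the 13 or 14 alternatives that tested them. With the threshold at 0.01 there were 8 lower and 1 higher among the 56 genes and 1464 lower and 1610 higher over all genes. When a mean of 2 or more (log2 CPM) was required, 8 were lower, since fewer genes were tested. Over the fits without 1 library each, 8 to 14 of the 56 were lower and 1 to 3 higher, and over all genes 1733 (without AXL KO replicate 3) to 2828 were lower and 2000 to 2846 higher. Among other pathway genes 15 to 23 were then lower and 9 to 17 higher. Upper-quartile scaling turned the Fzd3 value to -3.4e-05. Values near 0 turned their sign when 1 library was left out: they ranged from -0.071 to 0.070 for Fzd3, -0.084 to 0.062 for Lrp6, -0.275 to 0.118 for Axin2, -0.195 to 0.132 for Wnt5b, -0.0129 to 0.124 for Sfrp1, -0.0328 to 0.0723 for Wls, -0.0041 to 0.187 for Kremen1, -0.190 to 0.0409 for Daam1 and -0.106 to 0.0486 for Ccnd1. None of these 9 passed the test in any fit.

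Same-numbered libraries did not deviate together (correlations -0.13 to 0.09), and differently numbered ones ranged from -0.21 to 0.22. This check on 3 libraries per group cannot exclude that the numbers pair the samples. With the replicate block, 12 of the 56 were lower and 2 higher, and Tcf7l1 (-0.39, adjusted p = 0.0651) and Scrib (-0.29, adjusted p = 0.0781) lost their calls. Depth limits the ligands, Lef1, Axin2 and Lgr5, which rest on few counts.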

Other observations

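The authors' deposited table holds an adjusted p for 44 of the 56 genes. At 0.05 it calls 14 lower and 2 higher, beside 16.7% lower and 16.7% higher of the genes with an adjusted p in that table. All 13 genes called lower and both called higher by edgeR here are among them, and the remaining gene is Dkk2, with an adjusted p of 0.0351 in the authors' deposited table.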
